A study of Mus musculus with 11 samples.

Results

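Fos, Fosb and Atf3 encode transcription factors of the AP-1 and ATF family. Their messenger RNA was compared in gingival epithelium between separate groups of mice in a ligature model of periodontitis. The groups were naive, with the ligature in place, and with the ligature removed. The members were chosen by gene name, and all 3 were found among the 178 genes of the deposited table (Fos ENSMUSG00000021250, Fosb ENSMUSG00000003545, Atf3 ENSMUSG00000026628). The animals were male B6 mice. Naive mice carried no ligature (n = 4 libraries). Mice of the ligature group (n = 3) had silk tied around the second molars of the upper jaw on both sides, where such silk gathers bacterial plaque against the gum. In the removal group (n = 4) the same silk had been placed and was taken off on day 3. The labels do not give the day of tissue collection in any group, and they do not say whether each library came from its own animal, so p-values measure only the spread between these libraries. The epithelium was peeled from the gum after digestion with Dispase, and polyadenylated RNA was sequenced with a strand-preserving kit.

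AP-1 is a dimer of basic leucine zipper proteins. Fos and FosB must pair with a Jun protein to bind DNA, whereas the Jun proteins can also pair with each other, and ATF3 forms homodimers or pairs with Jun proteins. Fos, Fosb and Atf3 are immediate early or stress-response genes: growth factors, cytokines, mechanical stress and tissue handling switch them on within minutes through MAP kinases and factors such as SRF and CREB, without new protein synthesis, and their transcripts are short-lived. In keratinocytes, AP-1 is known for its part in differentiation, wound repair and inflammatory gene expression, and ATF3 is known as a stress-induced repressor of inflammatory genes.

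The 100 bases that lie just before the RefSeq start of each gene (GRCm38.p6, printed 5′ to 3′ on the strand of the gene) are shown because the 3 transcripts fell together with the ligature and after its removal, relative to naive libraries. Capitals mark the half-site of the cyclic AMP response element (TGACG, or CGTCA where it lies on the opposite strand), the TATA box (TATAAA), the GC box (GGGCGG, or CCGCCC on the opposite strand) and, in Fosb, an EGR site that overlaps the GC box.
Fos, chr12:85473790-85473889, plus strand: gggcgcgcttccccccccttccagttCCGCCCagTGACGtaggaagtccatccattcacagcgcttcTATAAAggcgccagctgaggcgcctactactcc
Fosb, chr7:19310046-19310145, minus strand: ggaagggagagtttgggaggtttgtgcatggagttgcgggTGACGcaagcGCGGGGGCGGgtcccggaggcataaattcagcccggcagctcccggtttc
Atf3, chr1:191183334-191183433, minus strand: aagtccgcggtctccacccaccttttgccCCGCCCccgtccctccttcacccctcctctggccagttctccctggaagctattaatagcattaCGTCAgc

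All 3 windows hold the half-site TGACG and a GC box. The half-site begins 66 bases before the start in Fos, 60 bases before it in Fosb and 7 bases before it, on the opposite strand, in Atf3. A widest gene model of Fosb in RefSeq begins 73 bases further upstream than the start used here. Searched on both strands, TGACG was found in 10.5% of the 32851 windows of this length in the RefSeq promoter table, and the GC box in 24.7%. Of 132 tested genes that matched a window, 27 (20.5%) held TGACG and 68 (51.5%) held a GC box. The TATA box was in the window of Fos alone among the 3, in 5.56% of all windows and in 14 (10.6%) of the 132 tested genes. The EGR site (GCGNGGGCG) was in that of Fosb alone, in 3.02% of all windows and in 12 (9.09%) of the 132 tested genes. Of 27 matched genes of the rapid-response list described below, 10 held TGACG, 18 a GC box, 5 the TATA box and 3 the EGR site. Neither the full element TGACGTCA (1.15% of all windows) nor the AP-1 site TGANTCA (2.73%) has its letters in these 3 windows. The motifs were chosen after the sequences had been seen, and a match describes letters, not binding.

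The table is a selected one. Of 176 genes tested, 162 had an unadjusted p under 0.05 in edgeR for ligature or removal against naive, so directions within it and counts of calls do not stand for the transcriptome. How the genes were selected is not given. If they were selected on differences between these same libraries, the p-values of the members are not independent evidence and may be too small. The adjustment covers the genes of the table alone. The counts of the table's genes summed to between 282274 and 503570 per library, and the depth of the libraries is unknown. The deposited batch correction divides the libraries in 2 sets that the labels do not name. Set A comprises the naive libraries numbered 1 and 2, the first ligature library and the removal libraries numbered 2, 3 and 4. Set B comprises the other 5 libraries. Each set holds all 3 groups. The table has none of the 5 general epithelial markers looked for (Krt5, Krt14, Epcam, Cdh1, Trp63), so the labelled cell type could be checked with Krt10 alone, a keratin of differentiating epithelium, which ranged from 81959.7 normalised counts in the lowest naive library to 187178 in the highest ligature library. In such bulk samples, fewer cells of a type and less RNA per cell cannot be told apart.

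With the ligature in place, all 3 transcripts fell: Fos to 52.4%, Fosb to 39.1% and Atf3 to 24.4% of the naive mean. Values are normalised read counts, that is, raw counts divided by the library's deposited size factor. Fos, the partner that defines the classical AP-1 dimer, stood at 14653, 13599.8, 11604 and 14348 in naive replicates 1 to 4 (13551 ± 1372, SD) and at 7290.2, 7764 and 6251 in the ligature libraries (7102 ± 774). Every ligature library lay below every naive one. In the edgeR fit the log2 fold change of Fos was -0.93 ± 0.14 (SE, adjusted p = 0.000341).

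Fosb, which codes for a close relative of Fos that also yields a shorter splice form without the activation domain, was counted at 17402, 14103, 15787 and 17917 in the naive libraries (16302 ± 1724). The ligature libraries held 7830.4, 6848 and 4426 (6368 ± 1752), again with no overlap. The third ligature library was the lowest of its group for all 3 genes. The log2 fold change of Fosb was -1.36 ± 0.21 (edgeR adjusted p = 0.000399).

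Atf3 was the least abundant of the 3 and had the largest fold change. It was counted at 1160.4, 1511, 1936 and 2316 in the naive libraries (1731 ± 503), and at 459, 513 and 295 in the ligature libraries (422 ± 114). The lowest naive library was still above the highest ligature library. The log2 fold change was -2.04 ± 0.30 (edgeR adjusted p = 0.000341). The naive libraries were themselves spread for Atf3, with a coefficient of variation of 29.0% against 10.1% for Fos, and both naive libraries of set A lay below both of set B. In the deposited batch-corrected values the naive coefficient of variation of Atf3 was 15.5%, and its ligature mean was 26.9% of the naive mean.

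**Figure D1:**
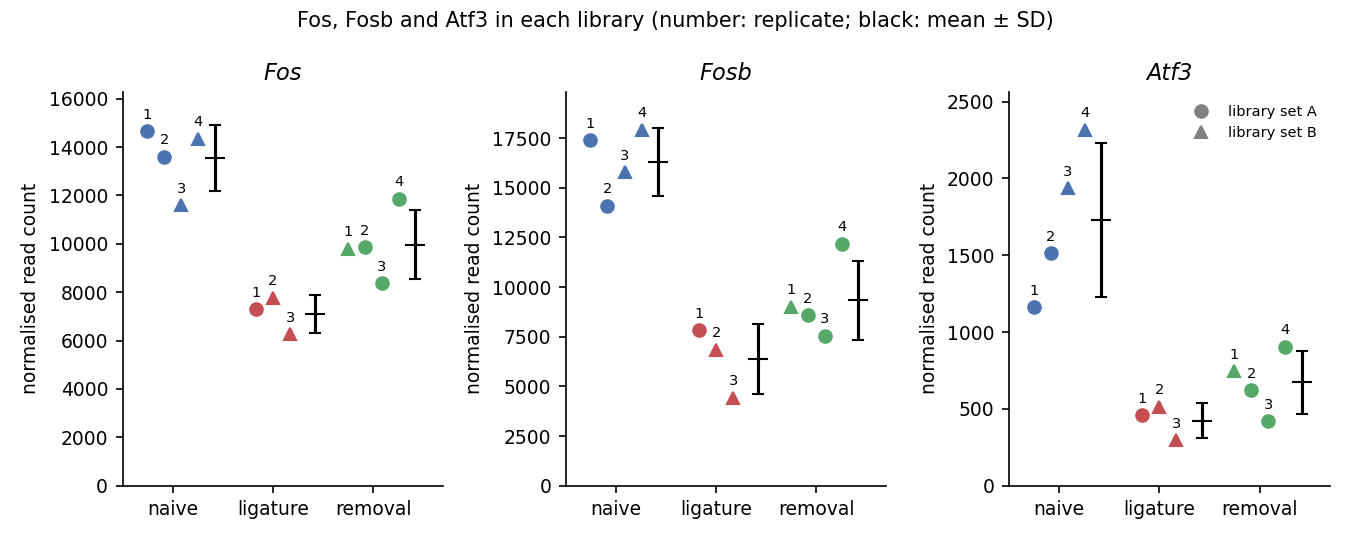
Normalised read counts of Fos, Fosb and Atf3 (y axis, linear and starting at 0) in naive, ligature and removal libraries (x axis). Each point is 1 library, its shape gives the library set, and the bar with whiskers gives the mean and SD. For all 3 genes the ligature libraries lie below every naive library, and the removal mean lies between the other two means.

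All 3 calls are to be read against a table in which 56.8% of the tested genes were called lower with the ligature, and 48.9% had ligature libraries that all lay below the naive ones. Among 176 genes ordered from the lowest log2 fold change, Atf3 took rank 10, Fosb rank 19 and Fos rank 40. The median over all tested genes was -0.38. Scaling by TMM factors over the table, which sets that median to -0.02, moved Fos to -0.57, Fosb to -1.003 and Atf3 to -1.68, and all 3 remained called (edgeR adjusted p = 0.00124, 0.000752 and 0.000612). TMM and median-of-ratios factors take most genes of the table as unchanged. With the deposited factors 56.8% were called lower and 28.4% higher, so that assumption is doubtful for this selected table. Calls lost or signs turned with such factors are to be read with that limit.

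After removal of the ligature, the 3 transcripts were still below the naive level: Fos at 73.6%, Fosb at 57.3% and Atf3 at 38.9% of the naive mean. In the deposited batch-corrected values these were 73.5%, 58.3% and 44.1%. The removal libraries had 9795, 9849.9, 8362 and 11861 normalised counts of Fos (9967 ± 1438). The fourth removal library exceeded the third naive library, so the groups overlapped for Fos. The log2 fold change of Fos was -0.44 ± 0.12 (edgeR adjusted p = 0.0169). That call was lost without naive replicate 1 (-0.40, edgeR adjusted p = 0.0501), without removal replicate 3 (-0.37, edgeR adjusted p = 0.0548) and under TMM (-0.24, edgeR adjusted p = 0.0866).

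Fosb was at 9002, 8595, 7556 and 12188 normalised counts after removal (9335 ± 1997), and all 4 values were below the naive range. This amounted to -0.80 ± 0.18 on the log2 scale (edgeR adjusted p = 0.0119). Atf3 was at 746, 622, 419.65 and 905 (673 ± 205), also wholly below the naive range, at -1.36 ± 0.26 on the log2 scale (edgeR adjusted p = 0.00778). Both calls held when any 1 library was left out and under TMM (Fosb -0.61, Atf3 -1.17). In the table as a whole, 24.4% of genes were called lower after removal, and 27.8% had removal libraries that all lay below the naive ones. The ranks from the lowest were 9 for Atf3, 17 for Fosb and 45 for Fos, where the median of all genes was -0.17 (0.03 under TMM). With the library set as a term in the fit of all 11 libraries, the decreases of all 3 genes after removal remained called. They were then -0.46 for Fos, -0.84 for Fosb and -1.26 for Atf3 (edgeR adjusted p = 0.00762, 0.00623 and 0.00594).

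Within library set A, which holds 2 naive and 3 removal libraries, none of the 3 decreases after removal passed the threshold (Fos -0.49, Fosb -0.74, Atf3 -1.04, edgeR adjusted p = 0.0614 for each). No gene of the table was called there, although 89 had an unadjusted p under 0.05 in edgeR. Set B holds 2 naive libraries and a single removal library, whose spread the fit takes from the other groups. There Fosb (-0.90) and Atf3 (-1.51) were called and Fos was not (-0.41, edgeR adjusted p = 0.153), which describes that 1 library.

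For Fosb and Atf3, removal compared with the ligature in place gave the smallest differences of the 3 comparisons. All 3 means were higher after removal, and the increase passed the test for Fos alone, at 0.49 ± 0.13 on the log2 scale (edgeR adjusted p = 0.0276). Every removal library held more Fos than every ligature library. Fosb differed by 0.55 ± 0.20 (edgeR adjusted p = 0.0647) and Atf3 by 0.67 ± 0.29 (edgeR adjusted p = 0.108). For both, removal replicate 3, the lowest library of its group for all 3 genes, was below ligature replicate 1. Of all genes tested, 17% were called higher in this comparison, and 23.3% had removal libraries that all lay above the ligature ones.

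The call of Fos between removal and ligature did not hold when some single libraries were left out, at log2 fold changes of 0.39 to 0.56. It was lost when any of the 3 ligature libraries was left out: the first (0.51, edgeR adjusted p = 0.0581), the second (0.56, edgeR adjusted p = 0.0615) or the third (0.41, edgeR adjusted p = 0.102). It was likewise lost without removal replicate 2 (0.49, edgeR adjusted p = 0.0744) and without removal replicate 4 (0.39, edgeR adjusted p = 0.0762). In 4 of these 5 fits, all but that without the third ligature library, edgeR called no gene of the table (49 to 72 genes at an unadjusted p under 0.05). The call was also lost under TMM (0.33, edgeR adjusted p = 0.0572). It held with the library set as a term in the fit of all 11 libraries (0.46, edgeR adjusted p = 0.0335). Within set A (1 ligature library) the value was 0.46, and within set B (1 removal library) it was 0.48. Both were close to that of the full fit, but Fos was not called in either set. Fosb was at 0.27 in set A and 0.68 in set B, and Atf3 at 0.50 and 0.89. Fosb, in turn, was called higher by DESeq2 with the deposited size factors (0.55, adjusted p = 0.0240). The order of the means was thus naive, removal, ligature for each gene. The neighbours removal and ligature were not separated beyond their spread for Fosb and Atf3 in the edgeR fit.

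**Figure D2:**
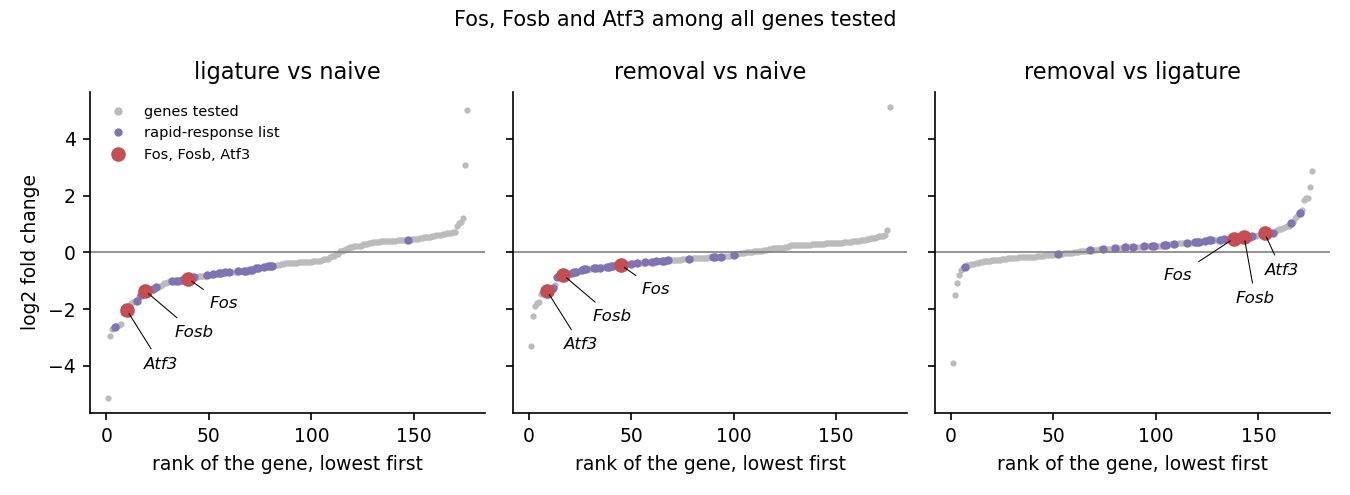
Log2 fold change (y axis) of the 176 tested genes in order from the lowest (x axis, rank), 1 panel per comparison. Grey points are all genes tested, purple points the rapid-response list, and the labelled red points Fos, Fosb and Atf3, which lie at ranks 10 to 40 with the ligature and at ranks 9 to 45 after removal.

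The 3 genes differed in how far they moved. Over the 11 libraries the highest value was 2.34 times the lowest for Fos, 4.05 times for Fosb and 7.86 times for Atf3. Within set A (1 ligature library) the log2 fold changes with the ligature were -0.95 for Fos, -1.01 for Fosb and -1.54 for Atf3. Within set B they were -0.89, -1.58 and -2.40. Fos and Fosb were thus close to each other in set A. A ratio of 2 genes within a library does not depend on the scaling of that library, so the raw counts were also compared as ratios. For each 100 Fos reads there were 7.92, 11.1, 16.7 and 16.1 Atf3 reads in the naive libraries, 6.30, 6.60 and 4.72 in the ligature libraries, and 7.62, 6.31, 5.02 and 7.63 after removal. Both other groups lay below the naive range, by a narrow margin to naive replicate 1. On the log2 scale, with 0.5 added to each count, the mean ratio was lower by a factor of 2.13 with the ligature (exact permutation test, two-sided, p = 0.0571, the smallest that 4 against 3 allows) and by a factor of 1.89 after removal (exact permutation p = 0.0286, the smallest that 4 against 4 allows). Adjusted over the 9 ratio tests these became 0.171 and 0.129. With so few libraries no adjusted value could fall below 0.0571, so these tests could not pass the threshold. The permutations also took no account of the library sets. Among naive libraries the ratio was lower in set A (7.92 and 11.1) than in set B (16.7 and 16.1). Removal has 3 libraries of set A and 1 of set B, naive 2 of each. Within set A the removal libraries were at 6.31, 5.02 and 7.63. The part of the sets in the ratios was not tested.

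The ratio of Fosb to Fos was 120.8 ± 13.5 Fosb reads per 100 Fos reads in naive libraries, 88.8 ± 18.3 with the ligature and 93.1 ± 6.74 after removal. Removal libraries lay wholly below naive ones (exact permutation p = 0.0286, adjusted 0.129), but by a narrow margin. The highest removal library was at 102.8 and the lowest naive library at 103.7. Ligature libraries overlapped the naive ones (exact permutation p = 0.114, adjusted 0.171). The ratio of Atf3 to Fosb was 10.6 ± 2.81 per 100 in naive, 6.67 ± 0.81 in ligature and 7.12 ± 1.14 in removal libraries, with overlapping groups (exact permutation p = 0.114 against naive in both cases, adjusted 0.171). Between removal and ligature the log2 ratios differed by 0.09 to 0.17, with exact permutation p-values of 0.4 to 0.686.

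**Figure D3:**
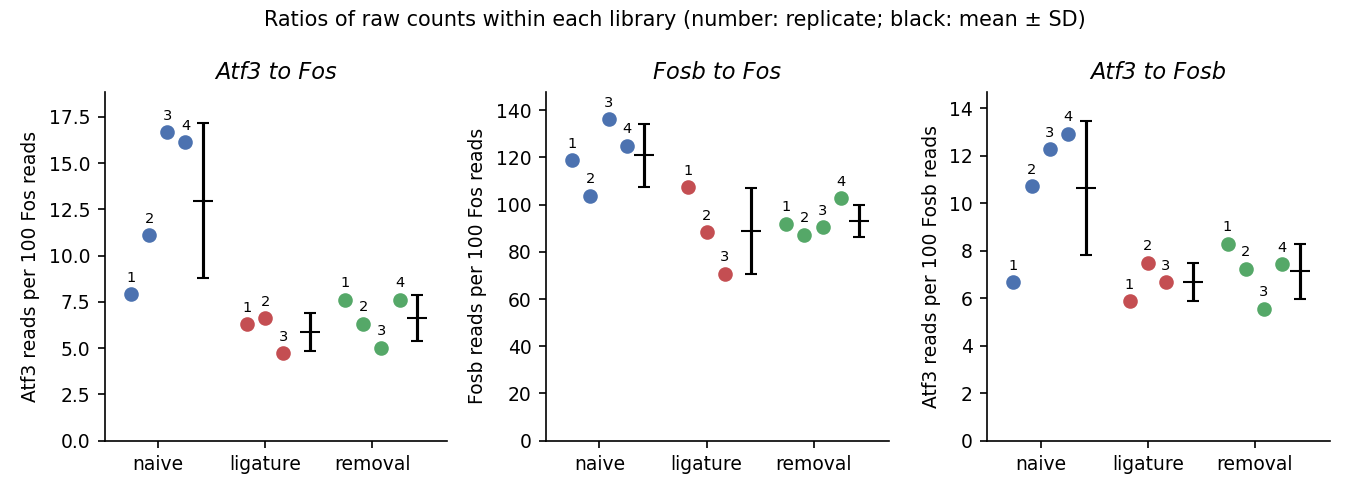
Reads of 1 gene per 100 reads of another within the same library (y axis, linear and starting at 0) for Atf3 to Fos, Fosb to Fos and Atf3 to Fosb, by group (x axis). Points are libraries, and bars with whiskers give the mean and SD. The Atf3 to Fos ratio of the naive libraries runs from 7.92 to 16.7, and those of the other groups stay at or below 7.63.

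The family list comprised 29 AP-1, ATF, CREB and MAF genes, of which 6 were in the table: Fos, Fosb, Atf3 and the Jun genes Jun, Junb and Jund, which supply the partners of Fos and FosB. With the ligature all 6 were called lower, against 56.8% of all genes, with a median log2 fold change of -0.84. After removal all 6 were called lower than naive, against 24.4% of all genes, with a median of -0.47. Relative to the ligature 2 of 6, Fos and Jun, were called higher, against 17% of all genes, with a median of 0.43. These medians compare with -0.38, -0.17 and 0.20 over all genes. Under TMM 5 of the 6 remained lower with the ligature (all but Jund, -0.15), 3 after removal (Fosb, Atf3 and Junb), and none differed between removal and ligature.

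With the ligature the Jun genes had smaller log2 fold changes than the 3 members, whereas after removal Junb fell by 0.51 and Fos by 0.44. These differences between genes were not tested. Jun, the strongest activator among the Jun proteins, went from 18010.4 ± 1777 normalised counts to 10682 ± 641 with the ligature (log2 fold change -0.75 ± 0.12, edgeR adjusted p = 0.000399) and to 13841 ± 1401 after removal (-0.38 ± 0.11, edgeR adjusted p = 0.0169). Junb, which can restrain Jun, changed by -0.69 ± 0.11 and -0.51 ± 0.10. Jund, the member that is present in most resting cells, had the smallest decrease of the 6 with the ligature and after removal, at -0.51 ± 0.11 and -0.29 ± 0.10. After removal the call of Jun was lost without naive replicate 1 or removal replicate 3 (-0.34 and -0.33). That of Jund was lost without naive replicate 1, 2 or 3 or removal replicate 1, 2 or 3 (-0.31 to -0.24). The call of Jun between removal and ligature (0.37 ± 0.12) was lost without the same 5 libraries as that of Fos (0.31 to 0.40).

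**Figure D4:**
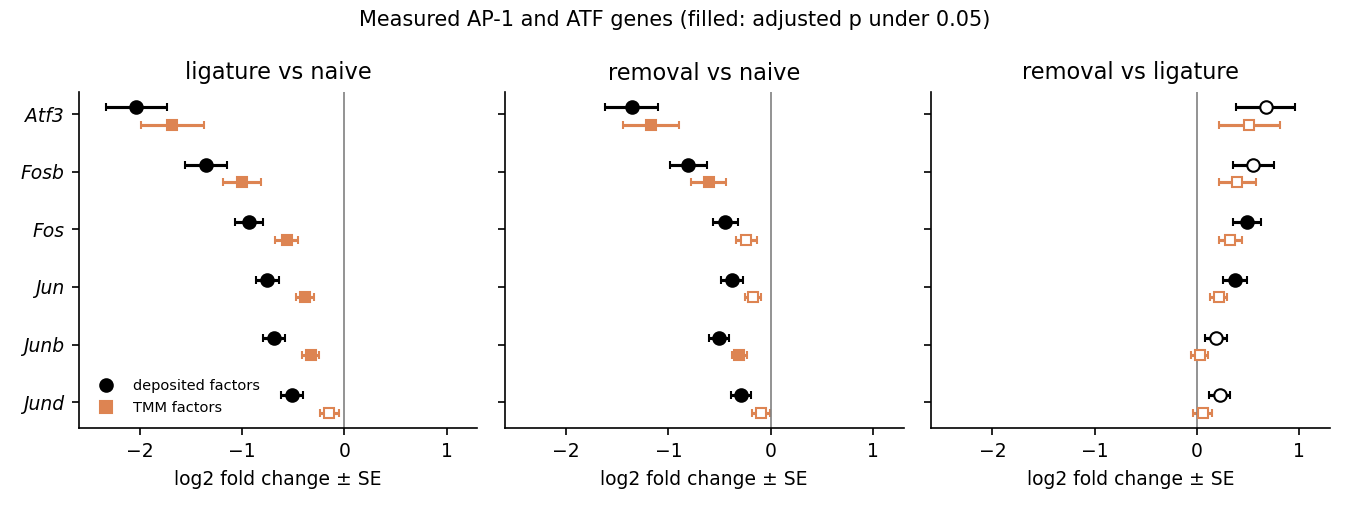
Log2 fold change with SE (x axis) of the 6 family genes in the table (y axis), 1 panel per comparison, from the edgeR fit with deposited size factors and with TMM factors. All 6 lie below 0 with the ligature, from -2.04 for Atf3 to -0.51 for Jund with the deposited factors, and all 6 lie above 0 for removal against ligature, where Junb was at -0.019 with DESeq2's median-of-ratios factors, which are not drawn.

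Levels of different genes were compared per kilobase of the longest coding transcript in GENCODE M21, since a longer transcript yields more reads. On that scale the naive libraries held 6428 ± 651 normalised counts per kilobase of Fos, 4310.4 ± 456 of Fosb and 872 ± 253 of Atf3, beside 5648 ± 557 of Jun, 5754 ± 436 of Junb and 6389 ± 419 of Jund. Atf3 was therefore the lowest of the 6 and the other 5 were of a similar order. As a share of the summed level of the 6 genes, Atf3 made up 2.98 ± 0.88% in naive, 1.26 ± 0.25% in ligature and 1.58 ± 0.35% in removal libraries, and neither of the other groups reached the naive range. Fosb made up 14.7 ± 1.38%, 10.00 ± 2.05% and 11.6 ± 1.18% in the same order. The share of Fos stayed close to its naive value of 21.8 ± 1.26%, at 20.2 ± 0.77% and 22.3 ± 0.93%. Jund went the other way, from 21.8 ± 1.98% to 27.0 ± 1.13% and 24.8 ± 0.98%. Jun was at 19.2%, 20.1% and 20.6%, and Junb at 19.6%, 21.4% and 19.2%. A larger share is not a higher level: Jund itself fell to 4485 per kilobase with the ligature and 5229 after removal. These shares depend on the transcript chosen for each gene, and were not tested.

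Of 27 genes that act upstream of these factors or feed back on the same signalling, 7 were in the table. With the ligature 6 were called lower, against 56.8% of all genes. Hbegf (-1.27 ± 0.21) and Areg (-1.50 ± 0.30) encode ligands of the EGF receptor, which signals to Fos through ERK. Map3k8 (-0.58 ± 0.16) encodes a kinase upstream of ERK, Dusp1 (-0.54 ± 0.15) a phosphatase that switches MAP kinases off, and Zfp36 (-0.98 ± 0.12) and Zfp36l1 (-0.24 ± 0.09) proteins that speed the decay of short-lived messenger RNA. Under TMM, Map3k8, Dusp1 and Zfp36l1 were no longer called, and Zfp36l1 had the opposite sign (0.13). The call of Zfp36l1 was also lost without naive replicate 1, ligature replicate 2 or ligature replicate 3 (-0.24 to -0.21). Nab2, a corepressor of EGR factors, was called higher (0.44 ± 0.14), as were 28.4% of all genes, but not without ligature replicate 1 (0.28).

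After removal Hbegf (-0.72 ± 0.19) and Zfp36 (-0.48 ± 0.11) were called lower against naive, and the other 5 did not pass. Between removal and ligature, Zfp36 (0.49 ± 0.12) and Areg (1.05 ± 0.30) were called higher, and Nab2 (-0.52 ± 0.14) was called lower, as were 2.84% of all genes. The calls of Zfp36 and Areg were lost without any of the 5 libraries named for Fos (0.42 to 0.51 and 0.90 to 1.07), and that of Nab2 without any of these or removal replicate 3 (-0.64 to -0.36).

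Of 25 genes known as AP-1 targets, 3 were in the table, and they did not move as a group. Ptgs2, which encodes the inducible cyclooxygenase of prostaglandin synthesis, was called lower with the ligature (-1.70 ± 0.39) and after removal (-1.34 ± 0.34). Krt10 was called higher with the ligature (0.64 ± 0.22), a call lost without naive replicate 4 or ligature replicate 1 (0.42 to 0.58), and measured 0.50 ± 0.21 after removal (edgeR adjusted p = 0.0683), where it was called higher under TMM (0.70, edgeR adjusted p = 0.0108). Vegfa, an angiogenic growth factor, measured -0.07 ± 0.12 with the ligature (edgeR adjusted p = 0.601) and was called higher under TMM (0.29). After removal it was called lower (-0.32 ± 0.11), and that call was lost without any 1 of these 8 libraries (-0.35 to -0.28).

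Fos, Fosb and Atf3 also belong to a list of 67 rapid-response genes, of which 33 were tested, the 3 Jun genes included. That list was written with the gene names of the table known, so its direction is not independent evidence. With the ligature 32 of 33 were called lower and 1, Nab2, was called higher, with a median log2 fold change of -0.75 (22 lower and median -0.39 under TMM). Of all 176 genes, 56.8% were called lower here, and 50 under TMM. After removal 23 were called lower, with a median of -0.49 (14 and -0.30 under TMM), beside 24.4% of all genes, or 22 genes under TMM. Between removal and ligature 12 were called higher and 1 lower, with a median of 0.37 (4 higher, 1 lower and 0.21 under TMM), beside 17% of all genes called higher, or 17 genes under TMM. The 4 members of the list with the smallest adjusted p with the ligature were Gadd45g, a growth arrest and stress gene (-1.38 ± 0.17), Nfkbia, which encodes the inhibitor of NF-kappaB (-1.02 ± 0.12), Zfp36 and the zinc finger factor Egr1 (-1.01 ± 0.13), each with an edgeR adjusted p of 0.000201. Atf3 and Fosb fell by more than the list's median in both comparisons with naive. Fos did so with the ligature alone.

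The genes whose pattern over the 11 libraries was most like each member all belong to the rapid-response list, except Rnf224. Likeness was measured as the root-mean-square difference of log2(normalised count + 1) after each gene was centred on its mean, among 157 genes. Fos lay closest to Zfp36 (0.10), Jun (0.10) and Egr1 (0.11), against its own root-mean-square deviation of 0.40. Fosb lay closest to Egr1 (0.24), Fos (0.26) and Rnf224, a gene for a RING finger protein (0.26), against its own 0.61. Atf3 lay closest to Fosb (0.39), Gadd45g (0.44) and Socs3, a feedback inhibitor of cytokine signalling (0.44), against its own 0.92. The neighbours of Atf3 were thus less like it than those of Fos were like Fos. All these values share libraries and size factors and are a description.

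Tissue handling is itself known to induce Fos, Fosb and Atf3, and heat shock genes were examined beside them. Of 12 heat shock and handling genes, 3 were in the table. Hspa1a (-1.35 ± 0.20), Hspa1b (-0.82 ± 0.18) and Dnajb1 (-0.80 ± 0.15) were all called lower with the ligature, as were 56.8% of all genes. Hspa1a and Hspa1b are near-identical copies whose reads the counting may have split. After removal none of the 3 was called against naive (-0.42, -0.20 and -0.29, or 0.0072 for Hspa1b under TMM, with edgeR adjusted p = 0.0702, 0.318 and 0.0881). All 3 were called higher than with the ligature (0.94, 0.62 and 0.51), as were 17% of all genes. These calls were each lost without 4 to 6 of the 7 libraries left out in turn: ligature replicates 1 and 2 and removal replicates 2 and 4 for all 3 genes, and ligature replicate 3 and removal replicate 3 for Hspa1b and Dnajb1 (0.42 to 0.98 over these fits). Their part in the changes of Fos, Fosb and Atf3 was not tested.

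Of the markers of other cell types that such a sample could hold, Cd68 of macrophages was the one in the table. It was counted lower with the ligature (-0.67 ± 0.16, edgeR adjusted p = 0.00402), a call lost under TMM (-0.31), and measured -0.37 ± 0.15 after removal (edgeR adjusted p = 0.0610). The other 4 macrophage markers and the lists for neutrophils, T cells, B cells, Langerhans and dendritic cells, fibroblasts, endothelium, muscle and erythrocytes had no gene in the table. The part of cell composition in the 3 transcripts' changes was not tested.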

How the data were processed

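RNA sequencing of 11 libraries was analysed from 1 deposited table, in which 178 of 993339 rows named a gene and the others were empty. Raw read counts were deposited by the authors as whole numbers. The deposited normalised values (a signal that is 0 or above) are each library's raw counts over a constant size factor, between 0.757 and 1.21, with deviations of at most 0.0032. The deposited batch-corrected values are on the same scale, with 7 below 0, and were used only for description. The submitters' processing notes list the build GRCm39 and the tools DESeq2 1.36.0, HTSeq 2.01, TopHat2 2.1.1 and cutadapt 2.10, with no roles. The method of batch correction and the counting's strand setting are not given in the sources used. In GENCODE M21, 1 small gene on the opposite strand overlaps Atf3, and none overlaps Fos or Fosb.

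The quasi-likelihood F test of edgeR 4.0.16 under R 4.3.3 was fitted once to the raw counts of the 11 libraries, with group means as the only terms and the deposited size factors as scaling. The default filter by group left out 2 genes. P-values were adjusted by Benjamini-Hochberg over the 176 genes tested, two-sided, and called under 0.05. The SE given with edgeR values was derived as the absolute log2 fold change over the square root of the F statistic. Ratios used raw counts with a pseudocount of 0.5 and exact permutation tests. Of the scripts, only the edgeR fit was tested on simulated counts, for ligature against naive, with as many genes raised as lowered. The library sets are the 1 division, of 957 tried, within whose sets corrected and normalised values are linearly related (median residual 3.3e-05% of the mean over 152 genes, against 1.45% for the next). Counting error was 0.700 to 1.45% per library for Fos and Fosb and 1.95 to 5.62% for Atf3, below the spread between libraries, and covers counting only.

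The members and all lists were chosen with earlier results of these data known. Named genes are the members, all table genes of the family, upstream, target and heat shock lists, the 4 rapid-response genes of smallest adjusted p with the ligature, and the 3 genes most like each member (mean of at least 50 normalised counts, predicted models left out). Cd68 and Krt10 are the markers found. Alternatives were TMM factors, DESeq2 1.42.0 with median-of-ratios or deposited factors, no or a stricter count filter, only the groups compared, a library set term, a replicate block and leaving out each library; fits within each library set were added after seeing the data.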

Additional observations from a re-analysis of the deposited data

How the results depend on the processing

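Fos, Fosb and Atf3 never changed sign in the fits run. With each library left out in turn, the log2 fold change with the ligature ranged from -1.001 to -0.85 for Fos, -1.53 to -1.15 for Fosb and -2.20 to -1.83 for Atf3, and every call held. After removal it ranged from -0.54 to -0.37 for Fos, -0.96 to -0.72 for Fosb and -1.54 to -1.19 for Atf3. Between removal and ligature it ranged from 0.39 to 0.56, 0.35 to 0.73 and 0.47 to 0.84. Other fits reached outside the ranges given for the ligature. For Fos, Fosb and Atf3 in that order, TMM gave -0.57, -1.003 and -1.68. Set A (1 ligature library) gave -0.95, -1.01 and -1.54, and set B gave -0.89, -1.58 and -2.40.

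Calls that changed otherwise were these. For removal against naive, Fos was lost under TMM (-0.24), within set A (-0.49) and within set B (-0.41), and Fosb (-0.74) and Atf3 (-1.04) within set A. For removal against ligature, Fos was lost under TMM (0.33), with DESeq2's median-of-ratios factors (0.28), within set A (0.46) and within set B (0.48), and Fosb was gained with DESeq2 and deposited factors (0.55). The removal minus ligature difference in log2 ratio, with 1 library left out, ranged from -0.0029 (without ligature replicate 1) to 0.20 for Atf3 to Fosb and from -0.067 (without ligature replicate 3) to 0.23 for Fosb to Fos.

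Genes called with the ligature, 150, were 84 within set A. Genes called after removal against naive, 66, were 126 with the library set as a term, 0 within set A (89 at an unadjusted p under 0.05 in edgeR), 41 within set B and 38 to 60 with 1 library left out. Genes called between removal and ligature, 35, were 53 with DESeq2's median-of-ratios factors, 8 with the replicate block, 23 within set A, 0 within set B (19 at an unadjusted p under 0.05 in edgeR) and 0 to 49 with 1 library left out. Within set A the ligature arm, and within set B the removal arm, is 1 library, assumed to vary like the other groups. Only ligature against naive in set B and removal against naive in set A have 2 or more libraries in both arms. The counts of 0 with 1 library left out came without ligature replicate 1 or 2 or removal replicate 2 or 4, where edgeR gave 72, 52, 53 and 49 genes at an unadjusted p under 0.05. TMM changed the split of higher to lower calls from 50 and 100 to 64 and 50 with the ligature, from 23 and 43 to 50 and 22 after removal, and from 30 and 5 to 17 and 12 between removal and ligature. Rapid-response genes called lower after removal, 23, were 14 under TMM, 0 within set A and 16 to 22 with 1 library left out. Those called higher against the ligature, 12, were 4 under TMM, 5 with DESeq2's median-of-ratios factors, 2 with the replicate block, 2 within set A, 0 within set B and 0 to 14 with 1 library left out.

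The signs of some other named genes turned. Vegfa with the ligature was 0.29 under TMM and with median-of-ratios factors, 0.15 within set A, and -0.21 to 0.052 with 1 library left out (above 0 without ligature replicate 3). Zfp36l1 was 0.13 (TMM) and 0.12 (median of ratios) with the ligature, 0.015 after removal (TMM), and -0.11 (TMM), -0.16 (median of ratios) and -0.12 (set B) for removal against ligature. Nab2 after removal was 0.13 (TMM), 0.082 (median of ratios) and 0.14 (set B), and Hspa1b 0.0072 (TMM). For removal against ligature, Dusp1 was -0.0069 and Junb -0.019 with median-of-ratios factors, Map3k8 -0.013 within set A, and Krt10 -0.27 to 0.085 with 1 library left out (above 0 without ligature replicate 1 or removal replicate 1). The cause of these changes was not tested.

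Whether the replicate numbers pair the libraries could not be told. Of 10 same-numbered pairs 3 correlated above 0.1 (-0.48 to 0.54), and 3 of 11 libraries correlated best with their own number. Those 3 pairs each joined libraries of the same library set, and all other same-numbered pairs joined set A to set B. The correlations were not corrected for the set, so they cannot decide on pairing. With the replicate block, Fos, Fosb and Atf3 were at -0.87, -1.29 and -1.90 with the ligature, -0.45, -0.83 and -1.39 after removal, and 0.43, 0.47 and 0.51 between removal and ligature, with the same calls as without it. Each group holds 3 or 4 libraries from a table of selected genes, and depth is unknown.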
